A study of Homo sapiens with 24 samples.

Results

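FOS, FOSB, FOSL1, JUN, JUNB, EGR1, EGR2, EGR3, ATF3 and SOX11 are 10 transcription factor genes of the immediate-early and nerve-injury responses. They were taken by symbol from the count table, as the first entry of each symbol, and made up 10 of its 36468 entries. Every gene had 1 entry, and all 10 passed the filter of at least 10 reads over the libraries of a fit. The counts come from sensory neuron cultures grown from H9WAO9, a human embryonic stem cell line. Vagal neural crest cells were made in 12 days, kept as spheroids for 4 days, differentiated to sensory neurons for 6 days and matured for 2 to 3 weeks. In each of 6 batches of differentiation, 1 culture each received vehicle, IL-6, TGF-β or IL-4 + IL-13, which gave 24 libraries of bulk mRNA. Cytokines were given for 5 days, with TGF-β at 2 ng/ml, IL-4 at 10 ng/ml and IL-13 at 3 ng/ml. These were dissolved in PBS with 0.1% BSA, which alone was the vehicle. The dose and time of IL-6 are not given in the sources used here. All cultures are of 1 cell line, and the study's own flow cytometry counted a minority of the cells as neurons. In such bulk samples, fewer cells of a type and less RNA per cell cannot be told apart.

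Immediate-early genes are transcribed within minutes of a stimulus, without new protein synthesis, and their mRNAs usually decay within hours. FOS, FOSB and FOSL1 encode Fos proteins that pair with the Jun proteins of JUN and JUNB to form the AP-1 factor, while EGR1, EGR2 and EGR3 encode zinc finger factors. In sensory neurons, axon injury induces ATF3, JUN and SOX11 for days, and these factors drive the regeneration programme, so FOS, FOSB and the EGR genes are commonly read as markers of recent activity and ATF3, JUN and SOX11 as markers of injury. The comparisons below ask what these genes looked like at the end of cytokine exposure, which lasted days in the groups other than IL-6, whose time is not given, and they cannot show a brief response at its start.

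Proximal promoters are shown for the 6 genes in which the motif TGACG, the core of the cAMP response element bound by CREB and ATF factors, lay within 250 bases before a start site. RefSeq promoters (GRCh38.p14) were matched for 7 of the 10 genes, with no entry used for FOSL1, EGR3 and SOX11. Each sequence is the 150 bases before the start site, 5′ to 3′ on the gene's own strand, and capitals mark TGACG on either strand (CGTCA when on the other strand) and the CArG box, the site of serum response factor. For EGR2, the third of its listed start sites, inside the annotated gene, is the one that held the motifs.
FOS, chr14:75278678-75278827, plus strand: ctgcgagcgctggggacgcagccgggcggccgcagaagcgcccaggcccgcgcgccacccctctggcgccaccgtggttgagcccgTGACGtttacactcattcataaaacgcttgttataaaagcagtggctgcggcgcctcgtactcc
FOSB, chr19:45467846-45467995, plus strand: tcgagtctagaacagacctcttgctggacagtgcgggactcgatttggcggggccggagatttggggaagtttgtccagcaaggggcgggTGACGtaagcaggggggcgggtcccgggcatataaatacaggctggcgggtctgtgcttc
JUN, chr1:58784048-58784197, minus strand: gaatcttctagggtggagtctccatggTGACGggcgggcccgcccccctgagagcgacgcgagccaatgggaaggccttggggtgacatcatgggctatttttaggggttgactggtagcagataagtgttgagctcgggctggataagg
JUNB, chr19:12791336-12791485, plus strand: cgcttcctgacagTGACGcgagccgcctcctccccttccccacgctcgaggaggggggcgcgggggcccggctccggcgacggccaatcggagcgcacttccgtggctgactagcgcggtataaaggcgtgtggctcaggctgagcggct
EGR1, chr5:138465329-138465478, plus strand: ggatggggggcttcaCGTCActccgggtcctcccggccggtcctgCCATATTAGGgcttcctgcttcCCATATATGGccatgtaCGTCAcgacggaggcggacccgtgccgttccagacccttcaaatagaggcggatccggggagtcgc
EGR2, chr10:62816367-62816516, minus strand: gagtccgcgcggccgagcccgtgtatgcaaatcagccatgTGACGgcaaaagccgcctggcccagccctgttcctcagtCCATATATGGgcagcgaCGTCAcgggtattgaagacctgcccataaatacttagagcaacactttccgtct

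TGACG was searched on both strands in the 250 bases before each start. It stood before a start of 6 of the 7 genes, with ATF3 as the exception, against 21.2% of the 35116 promoters. A gene counted if any of its listed starts matched, and the 7 genes had 10 starts. The shares given beside these counts are of single promoters, so genes and shares are not in the same unit. In FOS it lay 64 to 60 bases and in JUNB 137 to 133 bases before the start. The CArG box was present in EGR1, with 2 copies, and in EGR2, against 1.16% of all promoters. TATAAA stood before a start of 4 of the 7 genes, against 10.7%. It lay 33 to 28 bases before the start in FOS, 30 to 25 in FOSB and 31 to 26 in JUNB. In ATF3 it lay farther away, 230 to 225 bases before the second listed start. The EGR motif GCGNGGGCG and the STAT motif TTCNNNGAA each matched EGR1, against 8.41% and 6.57% of promoters. In none of the 7 were these letters found: the full element TGACGTCA (1.65% of all promoters), which holds TGACG within it, the AP-1 motif TGANTCA (6.57%), the SMAD motifs GTCTAGAC (0.182%) and CAGACA (13.6%), and the STAT motif with a spacing of 4 bases (5.38%). These matches describe letters in a window of fixed length and do not show binding.

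Library totals ran from 33342682 to 39817784 assigned reads (median 35775126). The 4 libraries of a batch share a differentiation, and after group means were removed from 16900 genes, 20 of the 24 libraries correlated most with their own batch. The vehicle library of batch 2 went against its label, with a mean r of 0.06 to its own batch. Its mean r was 0.42 to batch 4 and nearly the same, 0.41, to batch 3. That of batch 4 had a mean r of 0.16 to its own batch and 0.42 to batch 2. In batch 4 the TGF-β library and that of IL-4 + IL-13 stood closer to batch 3 (mean r of 0.64 and 0.59) than to their own (0.44 and 0.35). Whether these 2 vehicle libraries were exchanged was not tested, and every difference from vehicle within batches 2 and 4 rests on their labels. The labels were kept, and the results that changed are also given without both libraries. Of the lists of treatment response genes, 5 of 6 genes of the IL-4 and IL-13 response were called against vehicle (0.324% of all entries). These were ALOX15, CCL26, CISH, CD44 and IL13RA2. The study had listed all 5 among the top genes that separate treatments in these same data, so they are no independent check. Of the TGF-β response, 5 of 6 were called in the direct comparison with IL-4 + IL-13 (1.83% of all entries). Against vehicle, 0 of those 6 were called (0.0418% of all entries). In the IL-6 libraries, 0 of 6 of the IL-6 response were called (0% of all entries). All 13 neuron markers were detected in all libraries, at a summed 1653 to 12010 CPM, counts scaled to a common library total.

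Per kilobase of transcript, the injury factors SOX11 and JUN had the highest levels and EGR3 the lowest. Normalized counts per kilobase, averaged over the 24 libraries, were 1357 for SOX11, 1033 for JUN, 990.4 for ATF3, 742.5 for JUNB, 719.1 for FOS and 327.0 for EGR1. The remaining genes were far lower, with 37.1 for FOSL1, 14.8 for FOSB, 13.6 for EGR2 and 7.50 for EGR3. On the log2 scale per kilobase, SOX11 stood at 10.31 ± 0.57, FOS at 9.30 ± 0.79 and EGR3 at 2.95 ± 0.68 (SD, n = 24 libraries). The gap between neighbours in this order was larger than the SD of either gene only from FOS to EGR1 (1.13), from EGR1 to FOSL1 (3.06) and from FOSL1 to FOSB (1.30). All other neighbours stood within their spread, such as JUN and ATF3 (0.06) or JUNB and FOS (0.09). EGR3 had 8 to 69 reads per library and EGR2 10 to 102, so counting error weighs most in these genes.

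By the ratio of the highest to the lowest library, ATF3 and JUN varied least and EGR2 most. The SD on the log2 scale per kilobase was 0.79 for FOS and 0.75 for EGR2. On that scale 1 was added before the log, which lowers the spread of genes with low values, such as EGR2, so these SDs do not rank the 2 genes. The highest library exceeded the lowest 2.28-fold for ATF3, 2.57-fold for JUN, 5.15-fold for FOS, 6.29-fold for JUNB, 8.75-fold for EGR3 and 10.3-fold for EGR2. FOS ranged from 650.4 to 3009 normalized counts under vehicle (median 1334), from 617.9 to 2569 under TGF-β (1499), from 598.3 to 2661 under IL-4 + IL-13 (1318) and from 583.8 to 2391 under IL-6 (1328). ATF3 had medians of 1816, 1675, 1813 and 1875 in the same order, within a range over all libraries of 1353 to 3083. In both genes the 4 groups overlapped almost wholly.

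**Figure D1:**
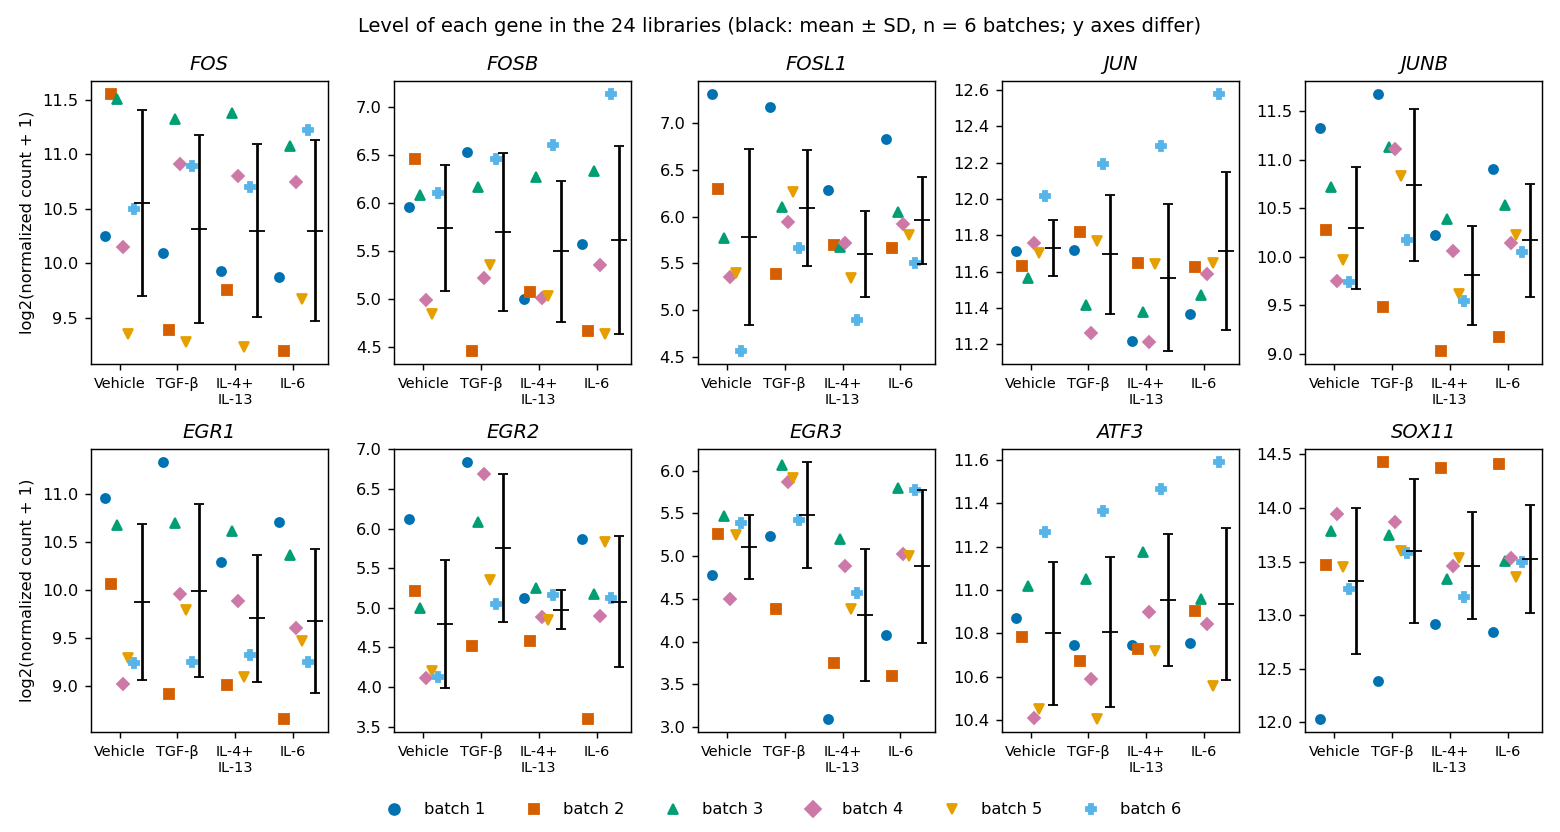
Level of each of the 10 genes in the 24 libraries, as log2(normalized count + 1), with treatments on the horizontal axis, batches by colour and symbol, and mean ± SD (n = 6) in black. The groups overlap for every gene, and the same batches recur at the top or bottom, such as batch 6 for JUN and ATF3 and batch 2 for SOX11 outside vehicle.

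Between TGF-β and IL-4 + IL-13, JUNB alone passed the test. JUNB, on chromosome 19 of GRCh38.p14 (12791486 to 12793315, plus strand, 1 exon), encodes a Jun protein. It ranged from 717.0 to 3272 normalized counts under TGF-β (median 2017) and from 520.6 to 1335 under IL-4 + IL-13 (median 923.1). The groups overlapped, but within every batch the TGF-β library was the higher one, by 1.45, 0.46, 0.74, 1.05, 1.22 and 0.63 on the log2 scale in batches 1 to 6. The fitted log2 fold change was 0.94 (SE 0.21, n = 6 batches, edgeR adjusted p = 0.0344). Of all 28701 entries tested, 1.83% were called in this comparison, and 1 of the 10 genes was. Its call was lost without batch 1 (adjusted p = 0.117), 3 (0.137), 4 (0.0579), 5 (0.233) or 6 (0.0877) in edgeR's fit, and kept without batch 2 (0.0108). Without the vehicle libraries of batches 2 and 4 the fold was 0.92 (adjusted p = 0.00172), in a fit that called 4.52% of all entries.

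EGR3, an EGR factor on chromosome 8 (22687659 to 22693480), had a larger fold at far lower counts. It ranged from 19.9 to 65.9 normalized counts under TGF-β (median 49.6) and from 7.53 to 35.9 under IL-4 + IL-13 (median 21.3). The differences were 2.15, 0.63, 0.86, 0.98, 1.54 and 0.85 in batches 1 to 6, so TGF-β was again higher in 6 of 6. The log2 fold change was 1.18 (SE 0.29) and missed the threshold with an adjusted p of 0.0558 in edgeR. It passed without the vehicle libraries of batches 2 and 4 (1.17, adjusted p = 0.0102) and in DESeq2, the tool of the study (adjusted p = 0.00479, where JUNB had 7.58e-04). The annotated span of JUNB overlaps that of HOOK2, and EGR3 that of LOC107986924. The strandedness of the counting is not given in the sources used here, so reads from those overlaps cannot be told apart.

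Markers of other cells differed in this comparison as well. The summed level of 9 mesenchymal markers was higher under TGF-β in 6 of 6 batches, by a mean of 0.62 on the log2 scale, though 5 of the 9 had a fold above 0 and their median was 0.07. The sums were 4195 to 13465 CPM against 2687 to 6340. Of these, COL1A1, a fibrillar collagen, was the 1 gene called (1.31, SE 0.28, adjusted p = 0.0275 in edgeR). Beside this and the calls below, 1.83% of all entries were called in this comparison. The summed level of 7 Schwann and satellite glia markers was higher in 6 of 6 batches by a mean of 0.52, with 4 of 7 folds above 0 and 1 called (93.8 to 175.2 against 63.4 to 112.5 CPM). The summed level of 4 endothelial markers was lower in 6 of 6 batches by a mean of -1.26 (16.2 to 74.1 against 28.03 to 158.2 CPM), with KDR, a VEGF receptor gene, called (-1.30, SE 0.25). Up to 1 glial marker was at 0 in these libraries. The neuron markers differed by a mean of 0.01, with 0 of 13 called. The part of these markers in the JUNB and EGR3 difference was not tested.

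**Figure D2:**
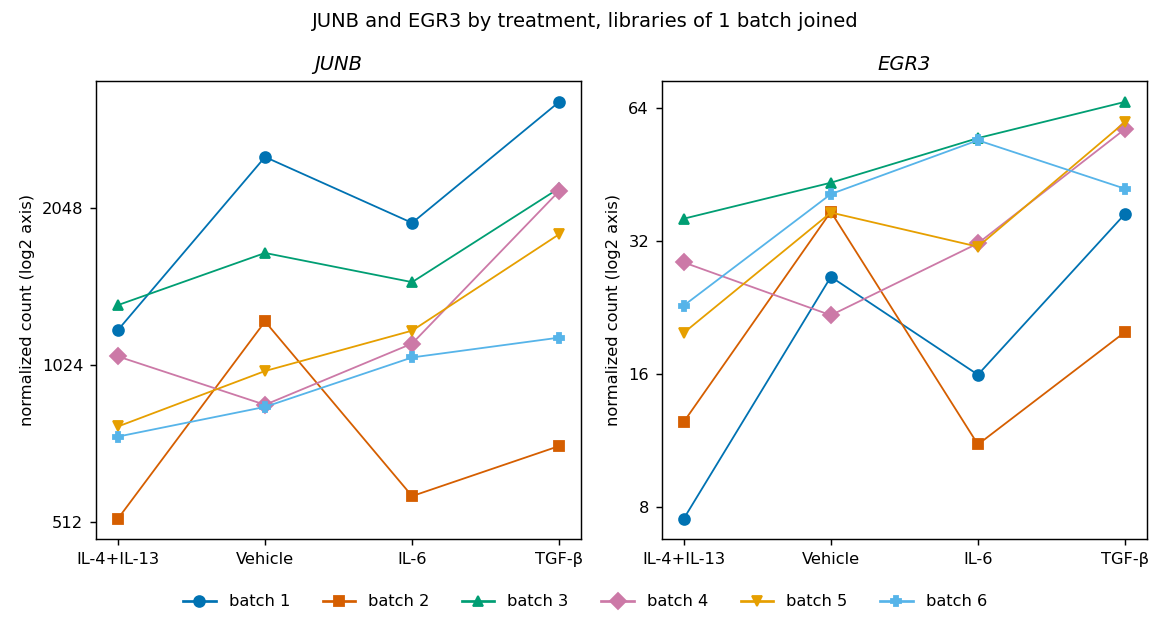
Normalized counts of JUNB and EGR3 on a log2 axis for each treatment, with lines joining the libraries of 1 batch. In all 6 batches the TGF-β library lies above the IL-4 + IL-13 library, and the vehicle library of batch 2 stands above the others of its batch.

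Like EGR3, the other 8 genes did not pass the test between TGF-β and IL-4 + IL-13. EGR2, which controls myelination in Schwann cells, had a log2 fold change of 0.85 (SE 0.35, adjusted p = 0.384 in edgeR) and was higher under TGF-β in 4 of 6 batches. Its range was 21.98 to 113.7 normalized counts under TGF-β and 23.01 to 37.0 under IL-4 + IL-13. FOSL1, which encodes FRA1, stood at 0.52 (SE 0.24, adjusted p = 0.475) and was higher in 5 of 6 batches. ATF3 was the 1 gene with a negative fold, at -0.16 (SE 0.07, adjusted p = 0.445), and lower under TGF-β in 5 of 6 batches. FOS differed by 0.05 (SE 0.28), JUN by 0.12 (SE 0.10), SOX11 by 0.11 (SE 0.18), FOSB by 0.23 (SE 0.32) and EGR1 by 0.29 (SE 0.22). The median fold over the 10 genes was 0.26, with 9 above 0, beside a median of -0.0031 over all entries.

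Against vehicle, none of the 10 genes was called under TGF-β, where 0.0418% of all entries were. At an unadjusted p under 0.05 it was 1 gene, EGR2, beside 6.08% of entries, and DESeq2 called 0. The largest difference was that of EGR2, at 0.99 (SE 0.36, n = 6 batches), with an unadjusted p of 0.0149 and an adjusted p of 0.588 in edgeR. EGR2 ranged from 16.3 to 68.3 normalized counts under vehicle (median 24.2) and from 21.98 to 113.7 under TGF-β (median 53.4). The TGF-β library was higher in 5 of 6 batches, by 0.73, 1.09, 2.58, 1.14 and 0.92 in batches 1, 3, 4, 5 and 6, and lower in batch 2 (-0.70). JUNB had a fold of 0.43 (SE 0.21, adjusted p = 0.846) and EGR3 of 0.38 (SE 0.28, adjusted p = 0.985), each higher in 5 of 6 batches. FOS differed by -0.27 (SE 0.29), ATF3 by 0.01 (SE 0.07), JUN by -0.04 (SE 0.10) and SOX11 by 0.26 (SE 0.18). Without the vehicle libraries of batches 2 and 4, EGR2 stood at 1.01 (adjusted p = 0.398) and JUNB at 0.48 (adjusted p = 0.330), FOS moved to -0.04 and FOSB from -0.02 to 0.32, with 0 of 10 genes and 0.102% of entries called.

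IL-4 + IL-13 against vehicle likewise called 0 of the 10 genes, where 0.324% of all entries were called. At an unadjusted p under 0.05 there were 3 (JUNB, EGR3 and ATF3), beside 7.47% of entries, and DESeq2 called 0. EGR3 had the largest difference, at -0.80 (SE 0.29, unadjusted p = 0.0149, adjusted p = 0.506 in edgeR), and was lower than vehicle in 5 of 6 batches. Its vehicle range was 21.7 to 43.3 normalized counts (median 37.1) against 7.53 to 35.9 under the cytokines. JUNB stood at -0.51 (SE 0.21, adjusted p = 0.596), lower in 5 of 6 batches, with batch 4 the exception (0.31). ATF3 was at 0.16 (SE 0.07, adjusted p = 0.628) and higher in 4 of 6 batches. FOS (-0.32, SE 0.29), FOSB (-0.26, SE 0.32), FOSL1 (-0.21, SE 0.24), JUN (-0.16, SE 0.10) and EGR1 (-0.19, SE 0.22) were below 0, and EGR2 (0.14, SE 0.36) and SOX11 (0.15, SE 0.18) above it. Without the vehicle libraries of batches 2 and 4, FOS stood at -0.05, FOSB at 0.13, FOSL1 at -0.12, JUN at -0.10, EGR1 at -0.11, EGR2 at 0.21, SOX11 at 0.10, EGR3 at -0.78 and JUNB at -0.44. The 2 comparisons against vehicle share their vehicle libraries. JUNB and EGR3 were above vehicle under TGF-β and below it under IL-4 + IL-13, and neither difference alone passed the test.

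IL-6 against vehicle called 0 of the 10 genes, and 0% of all 29377 entries tested in edgeR, with 1400 of them (4.77%) and 0 of the 10 genes at an unadjusted p under 0.05. DESeq2 called 132 entries and 0 of the 10 genes. JUNB, 1 of the 6 genes of the IL-6 response list, and FOS, both textbook targets of STAT3, differed by -0.17 (SE 0.19) and -0.33 (SE 0.30). EGR2 had a fold of 0.27 (SE 0.37), EGR3 of -0.22 (SE 0.28), EGR1 of -0.25 (SE 0.20) and FOSL1 of 0.13 (SE 0.21). ATF3 was nearest to the threshold, at 0.14 (SE 0.07, unadjusted p = 0.0589, adjusted p = 0.850), and higher in 4 of 6 batches. JUN (-0.02, SE 0.10), FOSB (-0.15, SE 0.31) and SOX11 (0.17, SE 0.16) completed the set. Without the vehicle libraries of batches 2 and 4, JUNB stood at -0.064, FOS at -0.0070, FOSB at 0.24, FOSL1 at 0.22, EGR1 at -0.14, EGR2 at 0.42, EGR3 at -0.12 and ATF3 at 0.10.

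The vehicle library of batch 2 stood apart in all 3 comparisons with vehicle. It held 3074 FOS reads, against 640 under TGF-β, 903 under IL-4 + IL-13 and 527 under IL-6 in that batch. FOS differed from vehicle by -2.17, -1.80 and -2.36 in batch 2, while the other batches lay between -0.43 and 0.77. The same library had the most FOSB (89 reads against 20 to 34), EGR1 (1089 against 362 to 538), JUNB (1269 against 519 to 685), EGR3 (38 against 10 to 19), FOSL1 (79 against 39 to 53) and EGR2 (37 against 10 to 24) of its batch, and the least SOX11 (11595 against 19622 to 22079). Its 5 cycling markers summed to 61.3 CPM, against 337.4 to 465.2 in the rest of its batch, and its neuron markers to 9132, against 5469 to 5868. Its mesenchymal markers summed to 8292 CPM, against 3712 to 4827. In batch 4 the vehicle library had the lowest normalized count of its batch for 8 of the 10 genes and the highest for JUN and SOX11. The part of these marker differences was not tested.

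**Figure D3:**
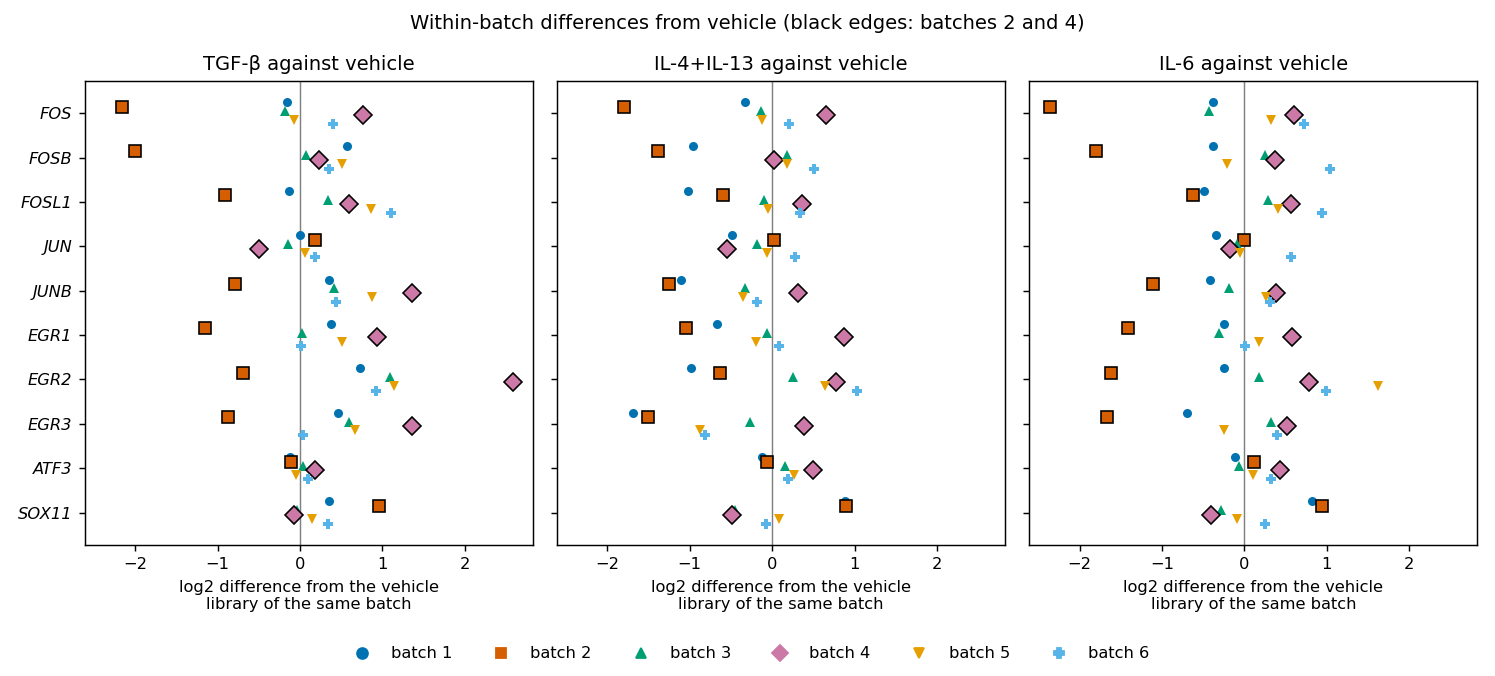
Log2 difference of each cytokine library from the vehicle library of its batch, for the 10 genes and 3 comparisons, with batches by colour and symbol and batches 2 and 4 edged in black. Batch 2 lies at -2.36 to -1.80 for FOS, and the points of batch 4 lie to the right of 0 for all genes but JUN and SOX11.

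In the test of any difference among the 4 treatments, JUNB alone of the 10 genes was called (edgeR adjusted p = 0.0457), where 1.81% of all entries were. EGR3 had an adjusted p of 0.139, ATF3 of 0.506, EGR2 of 0.516 and FOSL1 of 0.738, and the other genes of 0.874 to 0.989. Median JUNB levels were 1120.2 normalized counts under vehicle, 2017 under TGF-β, 923.1 under IL-4 + IL-13 and 1159.9 under IL-6. The JUNB call was lost without batch 1 (adjusted p = 0.239), 3 (0.223), 4 (0.0845), 5 (0.266) or 6 (0.111). Without the vehicle libraries of batches 2 and 4, JUNB (adjusted p = 0.00107) and EGR3 (0.0291) were called, where 3.59% of all entries were.

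Between batches of differentiation, every gene but EGR2 differed. In this test 9 of the 10 genes were called, against 56.8% of all entries, and EGR2 had an adjusted p of 0.102 in edgeR. This was not particular to the 10 genes. Among batches, 27 of 30 other immediate-early genes, 32 of 33 other nerve-injury genes and 11 of 14 late activity-regulated genes were called too. ATF3 had the smallest adjusted p (3.40e-07), and its batch medians ran from 1453 normalized counts in batch 5 to 2730 in batch 6. JUN was also highest in batch 6, at a median of 4845 against 2769 to 3275 in the others, and FOSB had its highest median there (91.6). FOS was highest in batch 3 (median 2615) and lowest in batch 5 (634.2), and these batches did not overlap. JUNB, EGR1, EGR2 and FOSL1 were highest in batch 1, with medians of 2242, 1834, 62.8 and 128.2. SOX11, a neural progenitor and injury factor, ran the other way, with its lowest median in batch 1 (6342) and its highest in batch 2 (21452). FOSL1's call was lost without batch 1 (adjusted p = 0.199), that of FOS without batch 5 (0.0560) and that of JUN without batch 6 (0.116). EGR3 was lost without batch 1 (0.0594) or 3 (0.0711). Without the vehicle libraries of batches 2 and 4, 10 of 10 genes were called, against 61.6% of all entries.

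The summed marker RNA of other cell types differed between batches as well. Summed neuron markers had a median of 2139 CPM in batch 1 and 11053 in batch 3. All 13 were called among batches, where 56.8% of all entries were. Mesenchymal markers had their highest median in batch 1 (9455) and their lowest in batch 6 (3376), and smooth muscle markers stood at 1379 in batch 1 against 527.3 to 777.5 elsewhere. The batch with most JUNB, EGR1, EGR2 and FOSL1 was thus that with the least neuron and the most mesenchymal and smooth muscle marker RNA. It also had the highest medians of epithelial (824.3 CPM), endothelial (94.1) and immune markers (59.8), so the match was not particular to 1 cell type. EGR2 was not called among batches. The part of these markers in the batch differences was not tested.

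**Figure D4:**
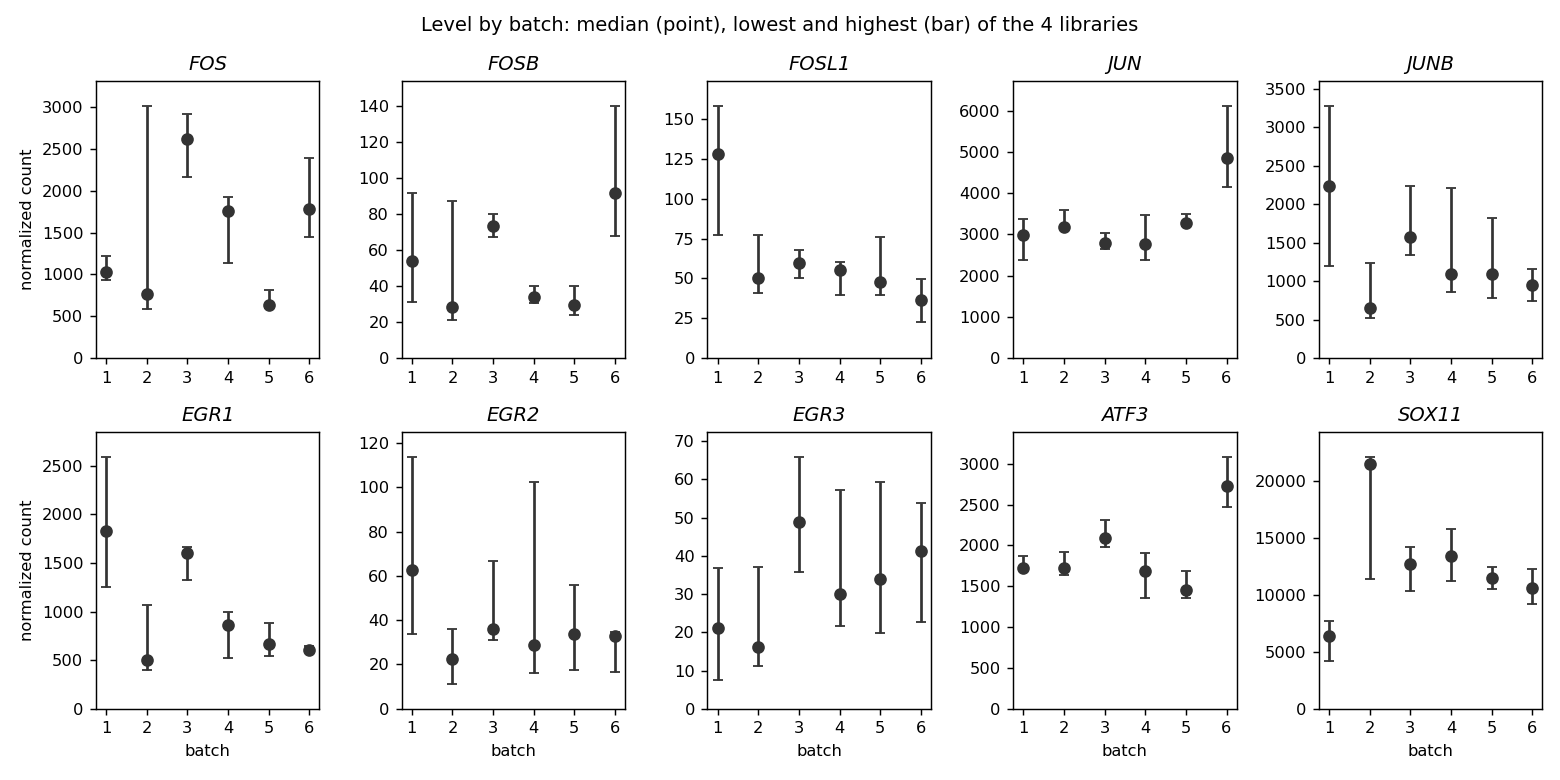
Normalized counts of the 10 genes by batch, with the median (point) and the lowest and highest (bar) of the 4 libraries, on axes that start at 0. JUN and ATF3 peak in batch 6, FOS in batch 3 and SOX11 in batch 2, and FOSL1, JUNB, EGR1 and EGR2 have their highest medians in batch 1.

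Within batches, JUNB and EGR3 moved together most closely of the 45 pairs. After batch means were subtracted, their log2 levels correlated at r = 0.94 over 24 libraries, and at 0.92 over 22 without the vehicle libraries of batches 2 and 4. JUNB also correlated with EGR1 at 0.81 (0.77 over 22), and with EGR2 and FOSL1 at 0.78 (0.73 over 22 for both). These values are descriptions over libraries that share cytokines and batches. FOS correlated with EGR1 at 0.77 and with SOX11 at -0.65, but only at 0.38 and -0.11 without those 2 libraries. FOSB and JUN had 0.36 with and 0.73 without them. ATF3 had low values with the other genes, from -0.34 to 0.20 over 24 libraries. Over 22 its values ran from -0.43 with JUNB and EGR3 to 0.24 with JUN.

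**Figure D5:**
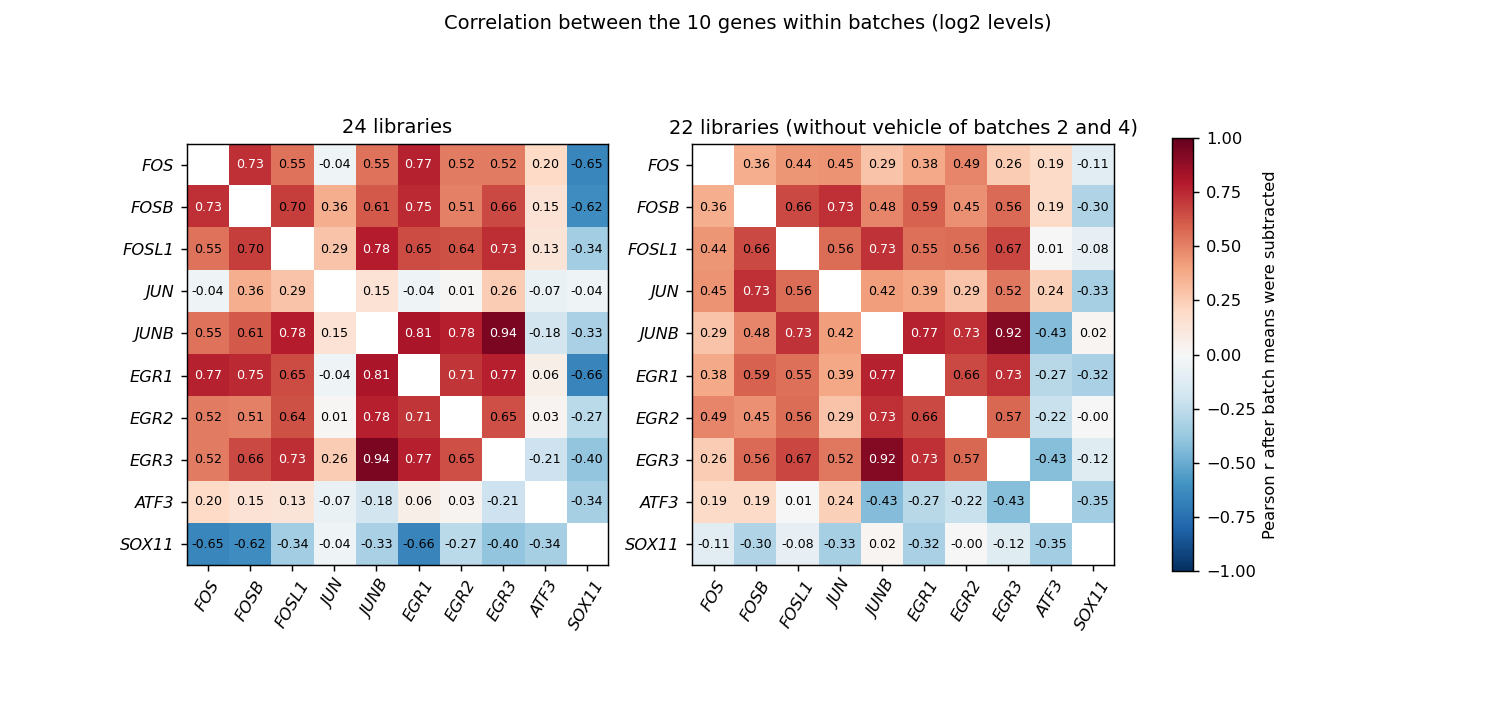
Pearson r between the log2 levels of the 10 genes after batch means were subtracted, over 24 libraries (left) and without the vehicle libraries of batches 2 and 4 (right). JUNB, EGR1, EGR2, EGR3 and FOSL1 form a positive block in both panels, while the values of FOS with EGR1 (0.77 and 0.38) and SOX11 (-0.65 and -0.11) shrink in the second.

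Of 15059 other genes with a mean count of at least 50, those most like JUNB within batches were SRPX (r = 0.98), ITGB1, an integrin subunit (0.95), and ITGB6 (0.95). EGR3 was most like SRPX (0.94), PIEZO1, a mechanosensitive channel gene (0.94), and LTBP2, which encodes a latent TGF-β binding protein (0.93). EGR2 had FN1, which encodes fibronectin (0.85), ADAM19 (0.84) and MMP14, a membrane metalloprotease gene (0.84), and EGR1 had PHLDA2 (0.95), IL4R (0.94) and DOCK5 (0.94). FOS had CXCL8, a chemokine gene, at 0.94, with 0.77 over 22 libraries. FOSB had NPAS4, another activity-induced factor gene, at 0.83 (0.65 over 22), after DHRS3 (0.85). FOSL1 was most like CD70 (0.87). Over all 24 libraries, the levels of JUN were most like those of the heat shock genes DNAJB1 (0.88) and HSPA6 (0.86). SOX11 was most like THSD7A (0.98) and NOVA2, a neuronal splicing factor gene (0.98). Each r is over the 24 libraries, which share batch and depth, and was picked as the highest of all these genes.

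The wider immediate-early programme gave few calls, all of them between TGF-β and IL-4 + IL-13. Of 30 other immediate-early genes, 3 were higher under TGF-β and 1 lower, where 0.665% and 1.16% of all entries were, with a median fold of 0.10 beside -0.0031 for all entries. GADD45B, a stress-induced gene, stood at 0.95 (SE 0.18, edgeR adjusted p = 0.0169), CCN2, which encodes a matrix growth factor, at 0.87 (SE 0.19, adjusted p = 0.0283) and KLF6 at 0.32 (SE 0.07, adjusted p = 0.0323), each higher in 6 of 6 batches. KLF2, a factor best known from endothelium, was lower in 6 of 6 batches, at -1.48 (SE 0.31, adjusted p = 0.0277). Against vehicle, 0 of the 30 were called under any cytokine. Of all entries, 0.0418% were called under TGF-β, 0.324% under IL-4 + IL-13 and 0% under IL-6. SGK1 under TGF-β (-0.69, adjusted p = 0.449) and CCN2 under IL-4 + IL-13 (-0.73, adjusted p = 0.189) had the smallest p.

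Genes that feed back on or follow the immediate-early response gave 2 calls in the direct comparison, where 1.83% of all entries were called. Of 14 genes of serum response factor and ERK feedback, SPRY2, an ERK pathway inhibitor, was lower under TGF-β than with the other pair of cytokines (-0.34, SE 0.07, edgeR adjusted p = 0.0241) and 0 were higher. Of 14 late activity-regulated genes, PTGS2, which encodes the prostaglandin enzyme COX-2, was higher (2.71, SE 0.60, adjusted p = 0.0365) and higher in 6 of 6 batches. INHBA, an activin subunit gene of this list, had 1.36 (SE 0.38, adjusted p = 0.340) and BDNF, a neurotrophin gene, -0.35 (SE 0.26) under TGF-β against vehicle. Against vehicle, 0 genes of either list were called in edgeR by any cytokine. Of all entries, 0.0418% were called under TGF-β, 0.324% under IL-4 + IL-13 and 0% under IL-6. At an unadjusted p under 0.05 there were 2 genes under TGF-β, 2 under IL-4 + IL-13 and 1 under IL-6. The shares of all entries at that threshold were 6.08%, 7.47% and 4.77%.

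Nerve-injury genes other than the 10 showed calls in single genes. Of 33 tested of 35 listed, 3 were called in the direct comparison, where 1.83% of all entries were. LIF, an injury cytokine of the IL-6 family, was higher under TGF-β by 2.01 (SE 0.25, edgeR adjusted p = 0.00157) and ANKRD1, a mechanical stress gene, by 1.52 (SE 0.21, adjusted p = 0.00230), both in 6 of 6 batches. FLRT3, an axon guidance gene, was lower by -0.87 (SE 0.11, adjusted p = 0.00164). ANKRD1 was also lower than vehicle under IL-4 + IL-13 (-1.08, SE 0.21, adjusted p = 0.0476), the 1 call of this list against vehicle, where 0.324% of all entries were called. The list's median fold in the direct comparison was 0.03. Among 22 tested genes of injury kinases and AP-1 partners, CEBPD, an acute phase factor, was the 1 called in the direct comparison (1.83% of all entries), lower under TGF-β (-1.15, SE 0.18, adjusted p = 0.00516). DDIT3, a stress factor gene, had folds against vehicle of 0.40 under TGF-β, 0.32 under IL-4 + IL-13 and 0.44 under IL-6, with edgeR adjusted p values of 0.291, 0.445 and 0.850. These comparisons share their vehicle libraries, and without those of batches 2 and 4 the folds were 0.25, 0.18 and 0.27.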

How the data were processed

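Per the labels and the study's methods, the authors' sequencing provider trimmed adapters with Trimmomatic 0.30, aligned the reads (GRCh38.p14) and assigned them to genes. The aligner, counter and strandedness are not given in the sources used here. The deposited values are raw read counts for 24 libraries, without normalization or pooling.

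Counts were tested with edgeR 4.0.16 (R 4.3.3), using TMM factors and robust quasi-likelihood fits of batch and treatment, as in the study's design. Entries with at least 10 reads in total were kept, and Benjamini-Hochberg adjustment ran over all of them. Calls were made below an adjusted p of 0.05. The 18 libraries without IL-6 entered 1 fit, and IL-6, the test over 4 treatments and that over 6 batches used all 24. Standard errors were derived from the fold change and the F statistic. DESeq2 1.42.0 was an alternative and gave the size factors behind normalized counts, which are shown as log2(count + 1) or per kilobase of the GENCODE transcript. Batch pairs the libraries, as the labels give a batch number for each. Same-numbered libraries correlated positively for all 24, at means from 0.06 to 0.83. Nothing says that cultures were independent beyond batch. With batch in the fit, p-values of the treatment tests measure how within-batch differences between treatments vary from batch to batch. The test over 6 batches sets the differences between batches against the spread within batches.

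All 10 genes are named. From other lists, genes called in a comparison were named (at most 6 by size), or up to 3 with the smallest p. For likeness, up to 3 genes with the highest r were named. Results for some genes are not reported here. The genes and lists were chosen with earlier results of these data known. Alternatives that leave out the vehicle libraries or batches 2 and 4, or keep 12 libraries, were chosen after seeing the data. Scripts were tested on simulated data. Figures were drawn with matplotlib.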

Additional observations from a re-analysis of the deposited data

Results flagged for a closer look

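In 2 of the 40 groups of 6 libraries, formed by the 10 genes and 4 treatments, 1 library stood far from the others by Dixon's test, which chance passes in about 1 of 20 groups. JUN in the IL-6 library of batch 6 had a log2(normalized count + 1) of 12.58, with the nearest IL-6 library at 11.65, a gap of 0.765 of the group's range. SOX11 in the vehicle library of batch 1 had a level of 12.03, with the nearest vehicle library at 13.25, a gap of 0.635 of the range.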

How the results depend on the processing

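Under every alternative run, 0 of the 10 genes were called against vehicle by TGF-β, IL-4 + IL-13 or IL-6. Of the 10, 1 was called between TGF-β and IL-4 + IL-13. That number was 2 with edgeR's filterByExpr, in DESeq2, with all 24 libraries in 1 fit, with the 12 libraries of both treatments, without the vehicle libraries of batches 2 and 4 together, and without batches 2 and 4. Over all entries, 584 of 22550 were called with filterByExpr, 700 of 27650 with the 12 libraries, 609 of 27610 without batches 2 and 4, and 438 of 33187 with no filter. The number of the 10 was 0 with no filter on low counts, and 0 to 2 when 1 batch or 1 vehicle library was left out. Among the 4 treatments, where 1 was called, the number was 2 in DESeq2 and without both vehicle libraries, 0 with DESeq2's size factors (501 of 29377 entries called) and with no filter (504 of 33680), and 0 to 2 when 1 batch or vehicle library was left out. Without the batch block, which pairs the libraries, 0 were called in both tests, and the JUNB fold between TGF-β and IL-4 + IL-13 was 1.02 (adjusted p = 0.835 in edgeR). Among batches, 9 were called, with 7 to 10 when 1 batch was left out. Causes of these changes were not tested.

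The number of entries called depended on the setting, and values are edgeR's unless DESeq2 is named. Against vehicle, 12 were called for TGF-β, 28 with library size only, 283 in DESeq2, 0 without the block, 24 with the first entry per symbol, 102 with all libraries in 1 fit, 21 without the vehicle library of batch 2, 29 without both vehicle libraries and 2 without batches 2 and 4. For IL-4 + IL-13 the numbers were 93, with 387 in DESeq2, 9 without the block, 186 with all libraries and 157 without both vehicle libraries. IL-6 had 0, and 132 in DESeq2. Between TGF-β and IL-4 + IL-13, 524 were called, 1228 in DESeq2, 23 without the block, 874 with all libraries, 889 without the vehicle library of batch 2 and 1284 without both. Among the 4 treatments, 532 were called, with 1279 in DESeq2, 44 without the block, 888 without the vehicle library of batch 2 and 1046 without both. When 1 batch was left out, the numbers ranged from 0 to 20 for TGF-β, 21 to 131 with IL-4 + IL-13, 118 to 739 in the direct comparison, 188 to 767 among treatments and 12602 to 16876 among batches (16696 with all).

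Some folds that were not called changed sign, and all stayed uncalled. For ATF3 under TGF-β against vehicle (0.0074), the values were -0.00089 with all libraries, -0.0178 without batches 2 and 4, -0.0173 with library size only, -0.00595 with no filter, -0.0117 without both vehicle libraries and -0.0370 to 0.0372 when 1 batch or library was left out. FOSB against vehicle was positive without batches 2 and 4 (0.39 under TGF-β, 0.0385 with IL-4 + IL-13, 0.23 with IL-6), without both vehicle libraries (0.32, 0.13 and 0.24) and without the block (0.0331 under TGF-β, 0.060001 under IL-6). JUN was positive without batches 2 and 4 (0.0141 under TGF-β, 0.0232 under IL-6), without both vehicle libraries (0.0228 and 0.0367) and without the block (0.0382 under IL-6). FOS under IL-6 was 0.0726 without batches 2 and 4. Without the block, EGR2 under IL-4 + IL-13 was -0.00146 and FOSL1 under IL-6 -0.0180. When 1 batch or vehicle library was left out, TGF-β against vehicle ranged from -0.46 to 0.14 for FOS, -0.17 to 0.37 for FOSB, -0.0938 to 0.0615 for JUN and -0.0495 to 0.36 for EGR1. IL-4 + IL-13 against vehicle ranged from -0.49 to 0.0841 for FOS, -0.42 to 0.11 for FOSB, -0.38 to 0.0516 for EGR1, -0.0593 to 0.42 for EGR2 and -0.0242 to 0.28 for SOX11. IL-6 against vehicle ranged from -0.54 to 0.16 for FOS, -0.41 to 0.25 for FOSB, -0.0116 to 0.29 for FOSL1, -0.13 to 0.0570 for JUN, -0.29 to 0.05005 for JUNB, -0.39 to 0.0168 for EGR1, -0.0345 to 0.64 for EGR2 and -0.38 to 0.0728 for EGR3. TGF-β against IL-4 + IL-13 ranged from -0.00128 to 0.0820 for FOS and -0.0139 to 0.32 for FOSB. EGR2 and EGR3 had as few as 10 and 8 reads in a library, which limits the precision of their folds.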
